A study of Mus musculus with 6 samples.

Results

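Oxidative phosphorylation genes were examined in mammary tumors of NeuT/ATTAC+AP mice that were or were not fed the LXR agonist DMHCA. The genes were chosen by symbol: those named as subunits of respiratory complexes I to IV or of ATP synthase (complex V), together with the complex I assembly factors of the Ndufaf series, and without symbols that contain -ps. This gave 111 of the 55385 genes in the expression tables. Of these, 13 were the protein-coding genes of the mitochondrial genome and 98 were nuclear. The nuclear genes comprised 41 named for complex I, 4 for complex II, 8 for complex III, 19 for complex IV and 18 for complex V, as well as 8 assembly factors. The symbol does not always give the place of the protein: Ndufa4 was counted with complex I although its product is a component of cytochrome c oxidase, and Cox7a2l, counted with complex IV, acts in the assembly of supercomplexes. The annotation types 4 of the genes counted as nuclear subunits, Ndufb4c, Ndufa11b, Ndufs6b and Cox6c2, as processed pseudogenes, and of these only Ndufb4c (205 to 402 TPM) was tested. The symbol Atp5o was carried by 2 gene identifiers. The rule left out 11 symbols, and among these Ndufb1-ps, named after its values were seen, is annotated as a noncoding RNA from a bidirectional promoter and was present at 92.5 to 146 TPM, a level corrected for gene length and for the size of the library.

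Mitochondria make most ATP by passing electrons from NADH and succinate through complexes I to IV to oxygen, which drives protons out of the matrix and back through ATP synthase. Complex II is wholly nuclear encoded, whereas complexes I, III, IV and V are assembled from subunits of both genomes, so that transcription of the mitochondrial genome and of many scattered nuclear genes must be matched. Tumor cells often combine respiration with a high rate of glycolysis, and the balance between these varies among mammary tumors.

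All mice were female and carried an activated rat ErbB2 transgene under the MMTV promoter, which is active mainly in mammary epithelium, and an FKBPv-caspase-8 fusion under the FABP4 promoter, which is active in fat cells. By the study's account all groups received the dimerizer AP20187 at 0.4 mg/kg from 6 weeks of age, which ablates part of the mammary fat. This leads to fibrosis, so by that account the controls were fibrotic as well. The DMHCA group also ate a diet with 0.05% DMHCA, about 100 mg/kg, from 8 weeks of age, and the comparison asked what this LXR agonist did to RNA levels on that background. In the labels the tissue is called fibrotic gland and the controls are given AP20187 vehicle, while the study speaks of RNA from tumors. The labels do not settle whether the controls received AP20187 or only its vehicle. If only the vehicle, the groups would differ in AP20187 as well as in DMHCA. The age at which tissue was taken is not given in the sources used here.

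Each group had 3 libraries. Expected counts summed to 53939201, 63420620 and 46358654 in Control 1, 2 and 3, and to 55539411, 52755446 and 52330938 in DMHCA 1, 2 and 3. DMHCA 1 and DMHCA 3 were nearly the same: their biological coefficient of variation was 0.0327 and 18.1% of 13380 genes differed beyond counting noise, against 0.376 to 0.579 for the other pairs within a group. These libraries were therefore summed and counted as 1 sample, which left 3 control samples and 2 DMHCA samples. The study describes tumors of 3 mice in each group, which this choice does not follow. The labels do not link libraries to mice, and why DMHCA 1 and 3 were so alike was not tested. All p-values here measure only the spread between these samples.

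The samples expressed markers of mammary epithelium and stroma, none of which tells tumor from other mammary tissue. All 8 luminal epithelial markers were detected, with a summed level of 4363, 3969 and 3371 TPM in Control 1, 2 and 3 and 4975, 5001 and 5014 TPM in DMHCA 1, 2 and 3. The luminal sum was thus higher in every DMHCA library than in every control, although 5 of the 8 markers were lower by mean on normalized counts (median log2 fold change −0.10). Krt18, a keratin of simple epithelia, was the most abundant of these. The 7 fibroblast markers, led by the collagen gene Col3a1, summed to 785, 331 and 1300 TPM in the controls and 646, 675 and 654 TPM with DMHCA. The 10 adipocyte markers, led by the fatty acid binding protein gene Fabp4, summed to 336, 144 and 1338 TPM in the controls and 103, 93.7 and 99.5 TPM with DMHCA, so that every DMHCA library lay below every control. The 6 B cell markers, led by Cd79a, summed to 37.0, 1.02 and 304 TPM in the controls and 2.45, 2.29 and 1.77 TPM with DMHCA. The 5 basal epithelial markers, led by Krt14, summed to 13.1, 2.51 and 55.3 TPM in the controls and 9.13, 2.58 and 9.30 TPM with DMHCA. Control 3 was thus the highest for fat, B cell and basal markers, and Control 2 the lowest of the controls for each of these. The 6 macrophage markers, led by C1qa, summed to 616, 586 and 723 TPM in the controls and 625, 506 and 634 TPM with DMHCA, and overlapped. No marker in these lists had 0 counts in all libraries. The part of these cell types in the results that follow was not tested.

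Mitochondrially encoded mRNAs made up a smaller part of the respiratory chain transcripts with DMHCA than in the controls, whereas the levels of nuclear subunit mRNAs overlapped. Summed over the 13 mitochondrial genes, the level was 61540, 76690 and 54980 TPM in Control 1, 2 and 3 and 42980, 55260 and 43040 TPM in DMHCA 1, 2 and 3. DMHCA 2 reached just above the lowest control on this scale, and the other DMHCA libraries lay below all controls (log2 difference of means −0.39, and −0.25 without Control 2). The largest part of this sum was the short gene mt-Atp8, at 15830, 21040 and 12110 TPM in Control 1, 2 and 3. It had 11550, 14620 and 12180 TPM in DMHCA 1, 2 and 3. Its counts were far fewer than those of mt-Co1. The 90 nuclear subunit genes summed to 24800, 30070 and 22300 TPM in the controls and 25280, 30260 and 25440 TPM with DMHCA. These nuclear sums overlapped (log2 difference 0.11, which was 0.24 without Control 2, 0.02 without Control 3 and −0.02 without DMHCA 2), and Control 2 and DMHCA 2 were the highest of each group for both genomes.

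The ratio of the mitochondrial to the nuclear sum separated the groups. This ratio, formed after the sums were seen, was 2.48, 2.55 and 2.47 in Control 1, 2 and 3 and 1.70, 1.83 and 1.69 in DMHCA 1, 2 and 3. The controls lay close together although their sums differed widely, and all DMHCA libraries were below all controls. The mean was 2.5 ± 0.0448 (SD, n = 3) in the controls and 1.76 ± 0.0921 (SD, n = 2) with DMHCA, a log2 difference of −0.50 (without DMHCA 2, −0.56). A ratio over chosen genes was given no p-value. Taken on shares of expected counts in place of TPM, the ratio was 3.01, 3.22 and 3.31 against 2.03, 2.13 and 2.02, again without overlap. In bulk tissue, fewer cells rich in mitochondria and less mitochondrial RNA per cell cannot be told apart.

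**Figure D1:**
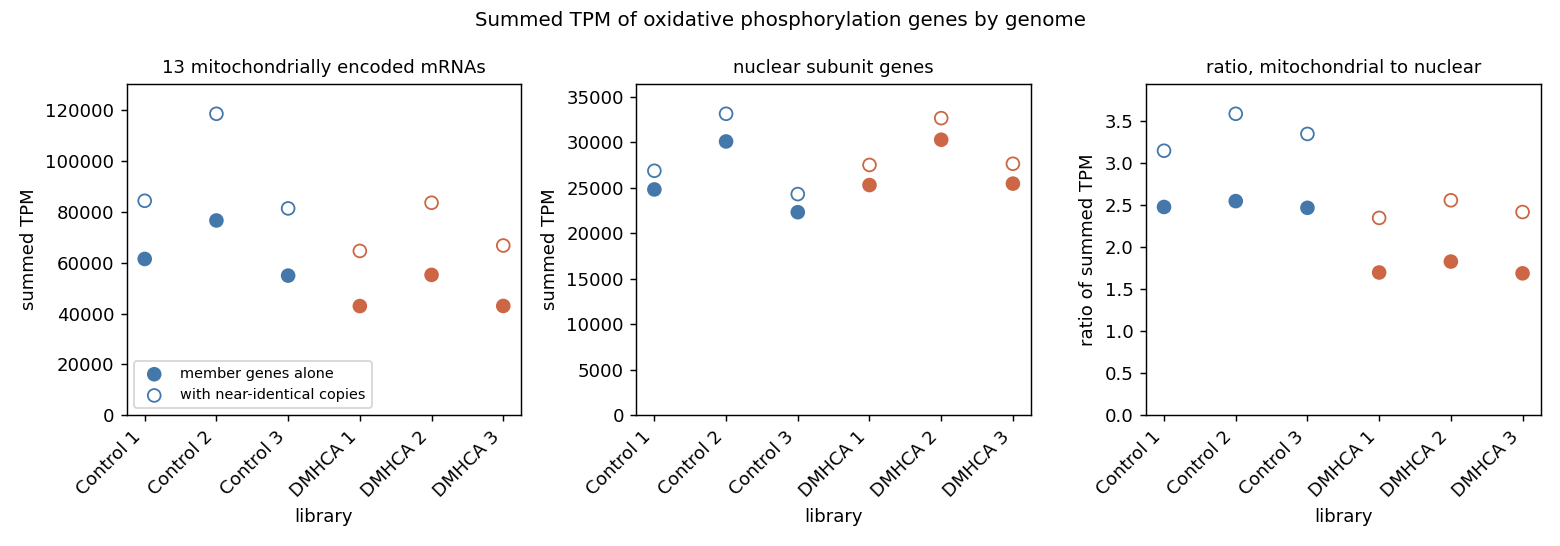
Summed TPM of the 13 mitochondrially encoded mRNAs, of the nuclear subunit genes, and the ratio of these sums, in each of the 6 libraries (blue, Control; orange, DMHCA; filled points, the genes alone; open points, with near-identical copies elsewhere in the genome added). The ratio is 2.47 to 2.55 in the controls and 1.69 to 1.83 with DMHCA, while both sums overlap between groups.

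Across the 111 genes, 105 passed the filter on low counts and were tested. In edgeR's quasi-likelihood test with Benjamini-Hochberg adjustment, 0 of these 105 genes passed an adjusted p of 0.05, as was true of 0.0% of the 19427 genes tested, the smallest adjusted p of any gene being 0.644. DESeq2 on the same 5 samples also called 0 of the oxidative phosphorylation genes (265 genes in all), and DESeq2 on the 6 libraries taken as separate samples called 1 higher and 2 lower (920 genes in all). At an unadjusted p under 0.05, 1 was higher with DMHCA, against 3.53% of all genes, and 3 were lower, against 4.08% of all genes. Both shares were below those of all genes. Without DMHCA 2, which leaves 1 DMHCA sample, none was at that level in either direction, and without Control 3 none was higher. By mean, 34 genes were higher and 71 lower, with a median log2 fold change of −0.18 against −0.03 for all genes tested. The 6 genes not tested, Ndufa11b, Ndufs6b, Cox6c2, Cox7b2, Cox8c and the second Atp5o identifier, had too few counts, with Cox6c2 reaching 1.97 TPM in DMHCA 2.

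The mitochondrial genes shared their direction. All 13 had a lower mean with DMHCA on counts scaled by TMM, edgeR's normalization for library size and composition, with log2 fold changes of −1.07 to −0.34 and a median of −0.58. On these normalized counts, 11 of 13 had both DMHCA samples below every control, against 12.2% of all genes tested, and 0 had both above, against 13.8%. Several of these gaps were very small: for mt-Atp8 the nearest values were 32311 and 32434 normalized counts, and for mt-Nd1 175213 and 175665. On TPM, a scale on which the median log2 fold change of all genes tested moved from −0.03 to 0.16 (0.11 with a pseudocount of 1 in place of 0.1), 3 of 13 lay below every control, against 6.97% of all genes, and 0 lay above, against 20.3%; the median of the 13 was then −0.33. On normalized counts Control 2 was the highest sample for all 13, and without it the median was −0.31 and mt-Nd4l turned to 0.19, the other 12 staying lower. DMHCA 1 and 3 combined was the lowest sample for 12 of the 13. These genes thus moved together across samples and do not count as 13 separate observations.

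Before copies elsewhere in the genome were considered, the smallest p-values among the mitochondrial genes were those of mt-Co3 and mt-Co2 of cytochrome c oxidase, complex IV, whose mitochondrially encoded subunits form the catalytic core that reduces oxygen. mt-Co3 (ENSMUSG00000064358, mitochondrial genome 8607 to 9390, GRCm38) encodes core subunit III and had 130896, 186473 and 130102 normalized counts in Control 1, 2 and 3 and 68146 and 73673 in DMHCA 1 and 3 combined and DMHCA 2. Both DMHCA samples were far below the lowest control. Its log2 fold change was −1.07 (SE 0.377, unadjusted p = 0.0267, adjusted p = 0.644 in edgeR's quasi-likelihood test). mt-Co2 (ENSMUSG00000064354, 7013 to 7696), which encodes the subunit that accepts electrons from cytochrome c, had 187776, 238688 and 180898 normalized counts in the controls and 98374 and 107764 with DMHCA. These groups were also well apart, with a log2 fold change of −0.97 (SE 0.375, unadjusted p = 0.0376, adjusted p = 0.644 in edgeR's quasi-likelihood test). mt-Co1, the subunit that holds the oxygen-binding site, was the most abundant of the 13 in counts, at 670510, 1265740 and 780854 in the controls and 553686 and 653614 with DMHCA. Its DMHCA samples were below the controls by a narrow margin, and Control 2 stood far above the rest (log2 fold change −0.58, SE 0.507, and −0.27 without Control 2).

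For complex III, mt-Cytb encodes cytochrome b, which oxidizes ubiquinol, and had 242034, 496643 and 239250 normalized counts in the controls and 198366 and 220521 with DMHCA. Control 2 had about double the counts of the other controls, and both DMHCA samples lay below all controls (log2 fold change −0.64, SE 0.497, and −0.20 without Control 2). For ATP synthase, mt-Atp6 encodes the subunit that forms the proton path and had 37376, 64156 and 38567 normalized counts in the controls and 27456 and 33827 with DMHCA. mt-Atp8 encodes a small membrane subunit on an overlapping reading frame and had 32434, 65890.4 and 32552 in the controls and 28093 and 32311 with DMHCA. Both were lower with DMHCA, mt-Atp8 by only a narrow gap, and Control 2 was again far above the others (log2 fold changes −0.61, SE 0.379, and −0.53, SE 0.427; without it, −0.31 and −0.11).

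The 7 mitochondrial subunits of complex I form the membrane arm that pumps protons, and their log2 fold changes ran from −0.76 to −0.34 with a median of −0.52. mt-Nd6, the only mRNA transcribed from the light strand, had 17568, 23168 and 22635 normalized counts in the controls and 14092 and 15295 with DMHCA, with no overlap. mt-Nd2 had 91376, 133796 and 86115 in the controls and 56136 and 80784 with DMHCA, also without overlap (log2 fold change −0.60, SE 0.394). The same order of groups held for mt-Nd1, mt-Nd4 and mt-Nd5 (log2 fold changes −0.46, −0.56 and −0.42) on normalized counts, whereas on TPM these and mt-Nd2 overlapped. mt-Nd3 had 2657, 6846 and 3997 in the controls and 2358 and 2970 with DMHCA. mt-Nd4l had 9012, 19567 and 7586 in the controls and 7688 and 11318 with DMHCA. These overlapped, and the lower mean of mt-Nd4l rested on Control 2 (0.19 without it). Without Control 2, mt-Nd1, mt-Nd2, mt-Nd3 and mt-Nd4 stayed lower but were closer to 0, at −0.21, −0.38, −0.32 and −0.23. Because mt-Nd5 and mt-Nd6 overlap on opposite strands, and mt-Atp8 with mt-Atp6, mt-Atp6 with mt-Co3 and mt-Nd4l with mt-Nd4 on the same strand, reads at these ends cannot be assigned with certainty. Whether strand was used in counting is not given in the sources used here.

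Near-identical copies of part of the mitochondrial genome lie in a block on chromosome 1 (24611535 to 24616197, GRCm38), annotated as unprocessed pseudogenes, and the authors' counting divided reads between these and the mitochondrial genes. Gm28437, 100% identical to mt-Co3 over 783 bases, held 63.6% of the expected counts of the pair. Gm28661, 100% identical to mt-Co2 over 681 bases, held 48.8% of its pair. For mt-Nd3 and mt-Atp6 the copies Gm28438 and Gm10925 held 88.7% and 86.5%. The division differed between libraries: the copy of mt-Co2 had 2228, 10694 and 4034 TPM in Control 1, 2 and 3 and 4446, 6731 and 5119 TPM in DMHCA 1, 2 and 3. It was lowest in Control 1 and highest in Control 2, whereas mt-Co2 itself, at 8229, 7583 and 7082 TPM in the controls, was highest in Control 1. The levels of mt-Co2, mt-Co3, mt-Nd3, mt-Nd4l and mt-Atp6 are therefore uncertain.

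Summing each gene with its copies, an alternative chosen after the data were seen, kept all 13 lower by mean, with a median log2 fold change of −0.56 and a range of −0.90 to −0.42. The cytochrome c oxidase genes no longer ranked first, and mt-Nd3 of complex I had the lowest log2 fold change and the smallest p (−0.90, 0.0653 in edgeR's quasi-likelihood test): mt-Co3 was then at −0.86 and mt-Co2 at −0.64, and neither was under an unadjusted p of 0.05 (0.128 and 0.265 in the same test). mt-Co3 with its copy had 9594, 15255 and 11020 TPM in the controls and 6958, 8615 and 7204 TPM with DMHCA. mt-Co2 with its copy had 10457, 18277 and 11117 TPM in the controls and 8774, 11627 and 8966 TPM with DMHCA. mt-Co3 and mt-Nd6 thus stayed apart between the groups, mt-Co2 overlapped once its copy was added, and mt-Nd3, which overlapped alone, was apart with its copy. The sum of the 3 mitochondrially encoded complex IV genes showed the same dependence: 23710, 27480 and 22820 TPM in the controls and 15430, 18740 and 14560 TPM with DMHCA did not overlap, but with copies added Control 1 at 31730 TPM fell under DMHCA 2 at 33330 TPM. The mitochondrial to nuclear ratio with copies was 3.15, 3.59 and 3.35 in the controls and 2.35, 2.56 and 2.42 with DMHCA, and without the genes that share sequence it was 1.98, 2.16 and 2 against 1.43, 1.56 and 1.47. In both cases all DMHCA libraries stayed below all controls.

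**Figure D2:**
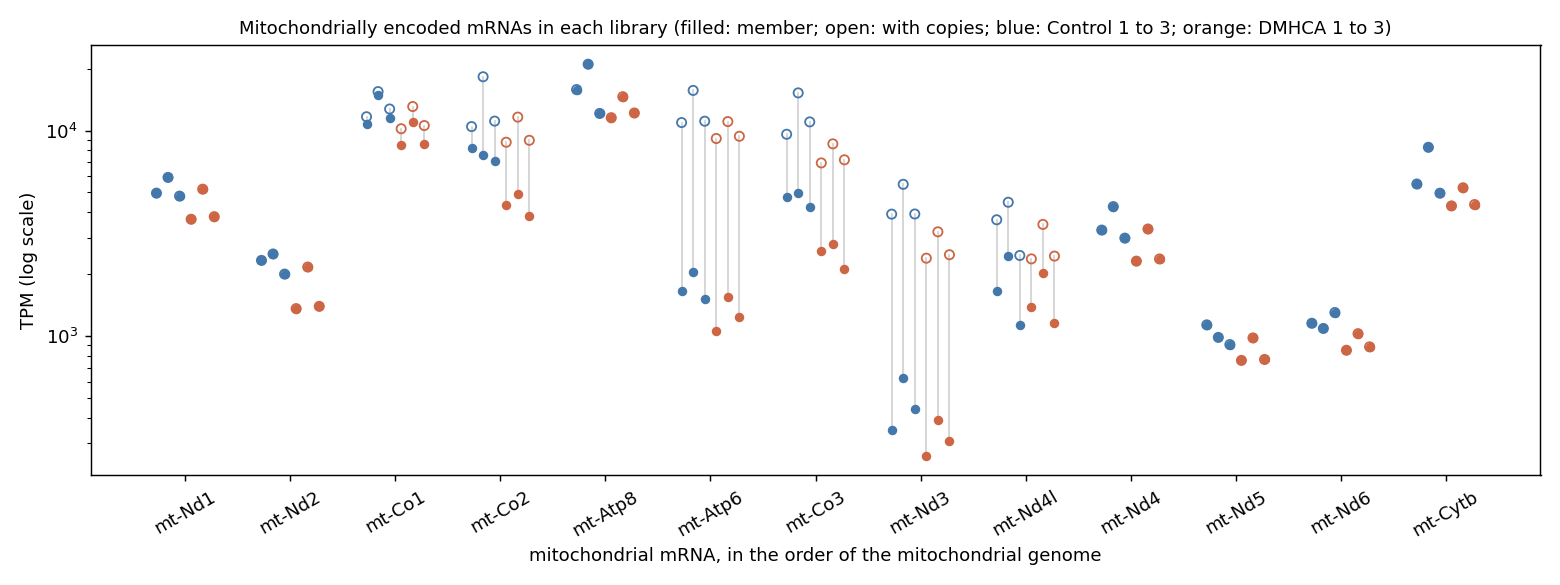
TPM (log axis) of the 13 mitochondrially encoded mRNAs in order along the mitochondrial genome, with 6 points a gene (blue, Control 1 to 3; orange, DMHCA 1 to 3; filled, the gene; open, the gene with its near-identical copies, joined by a line). Copies held most reads of mt-Atp6, mt-Co3 and mt-Nd3, and on TPM all DMHCA samples were below all controls for mt-Co2, mt-Co3 and mt-Nd6 alone and for mt-Co3, mt-Nd3 and mt-Nd6 with copies (3 of 13 each, against 6.97% of all genes).

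The ribosomal RNAs of mitochondria, transcribed from the heavy strand ahead of the mRNAs, also had lower means with DMHCA. mt-Rnr1, the small subunit rRNA, had 635, 786 and 839 TPM in Control 1, 2 and 3 and 434, 449 and 455 TPM in DMHCA 1, 2 and 3. mt-Rnr2, the large subunit rRNA, had 1493, 1241 and 1410 TPM in the controls and 1067, 631 and 1201 TPM with DMHCA. The groups did not overlap for either, but the order of samples was not that of the mRNA sums: on TPM, Control 2 was the lowest control and DMHCA 2 the lowest library for mt-Rnr2. The log2 fold changes were −0.98 (SE 0.342, unadjusted p = 0.0265) for mt-Rnr1 and −0.83 (SE 0.411, unadjusted p = 0.0867) for mt-Rnr2, each with adjusted p = 0.644 in edgeR's quasi-likelihood test, and without DMHCA 2 mt-Rnr2 was at −0.38. Of the 22 mitochondrial tRNA genes only mt-Ts1 was tested, at 22.9 to 57.1 normalized counts, and its groups overlapped, while 9 had no counts and the deposited TPM of all 22 was 0.

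Nuclear subunit genes did not share a direction. Of 84 tested, 30 were higher and 54 lower by mean with DMHCA, with a median log2 fold change of −0.14, which turned to 0.12 without Control 2 and to 0.08 on TPM, and moved to −0.26 and −0.29 without Control 1 and Control 3. Both DMHCA samples were above all controls for 3 and below all controls for 7, or 3.6% and 8.3%, shares under those of all genes (13.8% and 12.2%), while on TPM these counts were 13 and 3, or 15.5% and 3.57%, also under those of all genes (20.3% and 6.97%). By complex the medians were −0.12 for complex I, 0.08 for complex II, −0.17 for complex III, −0.28 for complex IV and −0.11 for complex V, and on TPM those of complexes I, III and V turned to 0.06, 0.04 and 0.14. Those of complexes II and IV moved on TPM to 0.36 and −0.02. The median of all genes tested also moved on TPM, from −0.03 to 0.16 (0.11 with a pseudocount of 1 in place of 0.1). The median of all nuclear subunits, at 0.08 on TPM and −0.14 on counts, was below that of all genes on each scale. Without Control 2 the medians of complexes I, III, IV and V turned to 0.08, 0.12, 0.07 and 0.19, and that of complex II turned to −0.05 without Control 1 and to −0.01 without Control 3. Summed TPM overlapped between the groups for complex I (7990, 9075 and 7223 against 7714, 9117 and 7760), complex IV (5692, 7192 and 5303 against 6155, 6835 and 6253) and complex V (8293, 10260 and 6916 against 8410, 10950 and 8461). The median of the mitochondrial genes was lower than that of the nuclear subunits by a log2 difference of −0.45, and this difference, formed after the medians were seen, stayed between −0.50 and −0.41 in each of the other fits tried. Fits that change only the scaling of samples shift both medians alike and could hardly move it. Leaving out single libraries gave the same range of −0.50 to −0.41.

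**Figure D3:**
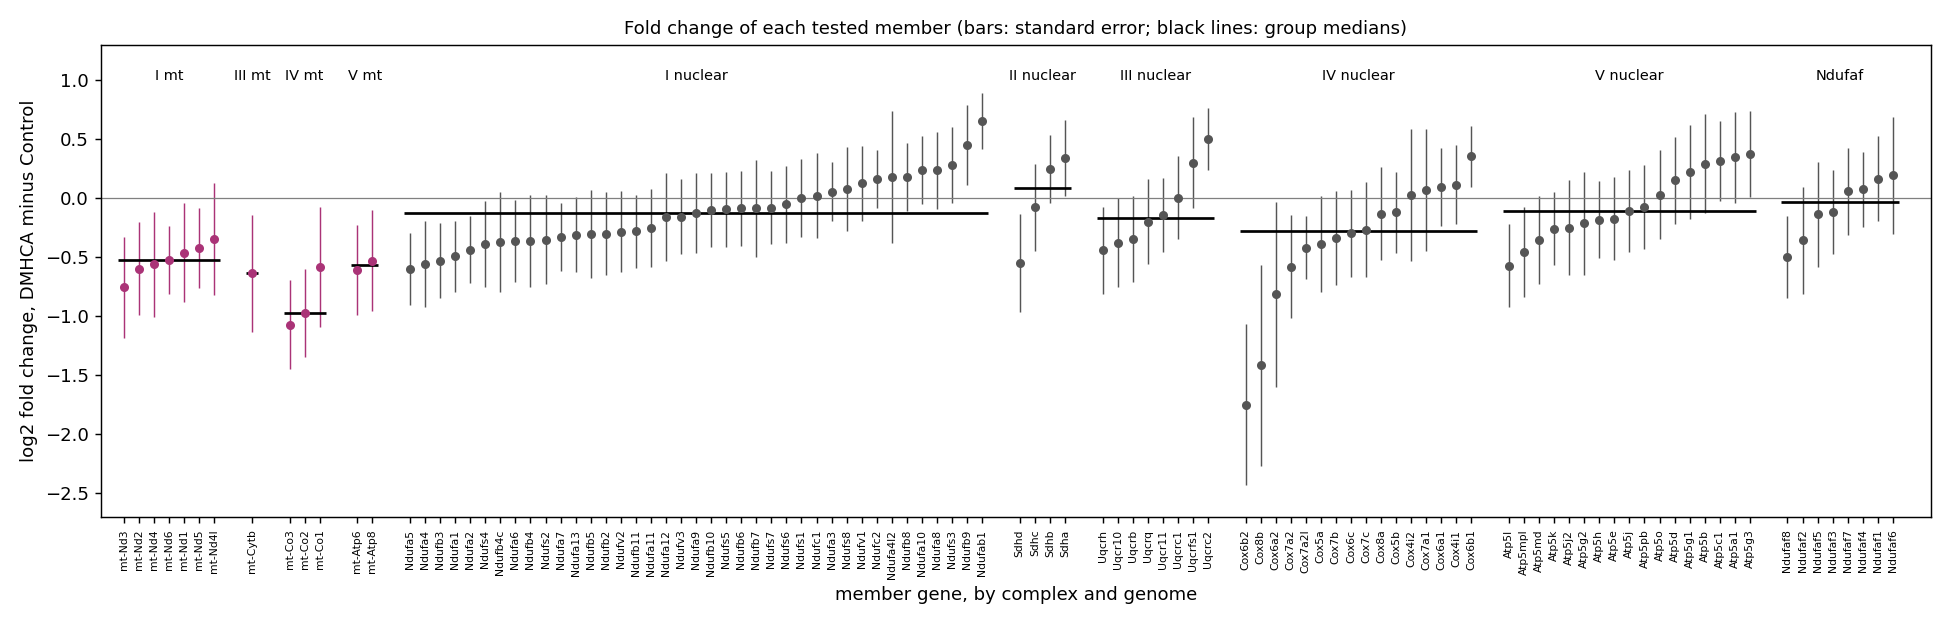
Log2 fold change (DMHCA minus Control, TMM-normalized counts) of the 105 tested genes, by genome and complex (points, genes; bars, standard error; black lines, group medians; mt, mitochondrially encoded; Ndufaf, assembly factors). All 13 mitochondrial genes lie below 0, although mt-Nd4l turned positive without Control 2, and the nuclear subunits spread around a median of −0.14, which turned positive without Control 2 and on TPM. On TPM the median of all genes tested rose as well, from −0.03 to 0.16.

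In complex I, Ndufab1 (ENSMUSG00000030869, chromosome 7, 122085403 to 122101886), the mitochondrial acyl carrier protein that is both a subunit and a cofactor of fatty acid and iron-sulfur cluster synthesis, was the one gene higher at an unadjusted p under 0.05. It had 4592, 3939 and 3711 normalized counts in Control 1, 2 and 3 and 6791 and 6061 in DMHCA 1 and 3 combined and DMHCA 2. Both DMHCA samples were above all controls (log2 fold change 0.66, SE 0.237, unadjusted p = 0.03, adjusted p = 0.644 in edgeR's quasi-likelihood test). Ndufa5, a subunit of the matrix arm, had the smallest p among the lower genes, with 4326, 6894 and 4276 in the controls and 3267 and 3546 with DMHCA. Its DMHCA samples were below all controls (log2 fold change −0.60, SE 0.306, unadjusted p = 0.0932 in edgeR's quasi-likelihood test, and −0.34 without Control 2). Ndufa4 was the most abundant by TPM, at 777, 975 and 737 in the controls and 498, 816 and 505 with DMHCA. On TPM DMHCA 1 and 3 were low and DMHCA 2 lay among the controls, and on normalized counts both DMHCA samples were below the controls (log2 fold change −0.56, SE 0.366, and −0.27 without Control 2). The assembly factors, which help build complex I without being part of it, had a median of −0.03, with 4 higher and 4 lower. Ndufaf8, an assembly factor, had 978, 1668 and 1169 in the controls and 892 and 907 with DMHCA, below the controls (−0.50, SE 0.346, and −0.26 without Control 2). Ndufaf1, which acts in assembly of the membrane arm, had 871, 884 and 598 in the controls and 1000 and 759 with DMHCA and overlapped (0.16, SE 0.359, and about 0 without Control 3).

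Complex II, succinate dehydrogenase, links the citric acid cycle to the chain. Sdha, its flavin-bearing catalytic subunit, had 10929.8, 17397 and 11918 normalized counts in the controls and 14774 and 19164 with DMHCA. Sdhd, a membrane anchor, had 4869, 9991 and 6877 in the controls and 6369 and 3528 with DMHCA. Both overlapped, with Control 2 and DMHCA 2 high for Sdha and DMHCA 2 the lowest for Sdhd (log2 fold changes 0.34, SE 0.323, and −0.55, SE 0.413; without DMHCA 2, 0.18 and −0.14, and without Control 2, 0.57 and −0.25). In complex III, Uqcrc2 (ENSMUSG00000030884, chromosome 7, 120635176 to 120659524), a core protein on the matrix side, had 9743, 7525 and 9524 in the controls and 13421 and 11900.2 with DMHCA. It was above all controls in both DMHCA samples (log2 fold change 0.50, SE 0.263, unadjusted p = 0.0998 in edgeR's quasi-likelihood test). Uqcrh, the hinge protein that meets cytochrome c1, had 5923, 9463 and 10474 in the controls and 7841 and 4838 with DMHCA, and overlapped (−0.44, SE 0.366, and −0.09 without DMHCA 2). Uqcr10, a small subunit and the most abundant by TPM, was at 535, 714 and 423 in the controls and 479, 552 and 462 with DMHCA. It overlapped, and its log2 fold change of −0.38 turned to 0.03 without Control 2.

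In complex IV, Cox6b1, a subunit facing the intermembrane space, had 11971, 11072 and 12261 normalized counts in Control 1, 2 and 3 and 16531 and 13578 in the DMHCA samples. Both DMHCA samples were above the controls (log2 fold change 0.36, SE 0.259). Its partner Cox6b2 (ENSMUSG00000051811, chromosome 7, 4751792 to 4753094), an isoform mainly of testis, was rare, with 54.3, 47.8 and 105 in the controls and 27.1 and 13.4 with DMHCA. It was lower in both DMHCA samples (log2 fold change −1.75, SE 0.684, unadjusted p = 0.0398, adjusted p = 0.644 in edgeR's quasi-likelihood test) and did not pass a filter at 50 counts. Cox4i1, the common form of the largest nuclear subunit and the most abundant by TPM, was at 827, 922 and 752 in the controls and 895, 1223 and 897 with DMHCA. It overlapped, and its log2 fold change of 0.12 turned to −0.02 without DMHCA 2. In complex V, Atp5g3, one of the genes for the membrane ring, had 17832, 25713 and 12794 in the controls and 22552 and 26096 with DMHCA. Atp5l, a membrane subunit at the dimer interface, had 8569, 15076 and 11404 in the controls and 9369.7 and 6323 with DMHCA. Atp5b, the catalytic beta subunit and the most abundant by TPM, was at 1171, 1471 and 880 in the controls and 1313, 1885 and 1321 with DMHCA. All of these overlapped (log2 fold changes 0.37, SE 0.366, −0.57, SE 0.352, and 0.29, SE 0.421), and single libraries moved each: without DMHCA 2 Atp5l was at −0.28 and Atp5b at 0.10, and without Control 3 Atp5g3 was at 0.16 and Atp5b at 0.08. Without Control 2, Atp5g3 and Atp5b rose to 0.67 and 0.63, and Atp5l was at −0.35. Atp5g2 and Ndufb4 shared most of their reads with processed pseudogenes (95% and 63.3% on Gm10175 and Ndufb4c), so their levels are uncertain. So are those of Ndufab1, Uqcrc2, Cox4i1, Atp5l, Cox6a2 and Ndufa4l2, whose exons overlap a gene on the opposite strand.

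Several complex IV subunits have forms restricted to certain tissues. These 8 genes, led by Cox7a1, summed to 82.7, 99.3 and 94.6 TPM in the controls and 107, 38.5 and 101 TPM with DMHCA, and 7 common partners, led by Cox4i1, to 4201, 5071 and 3927 TPM and 4384, 5162 and 4448 TPM. Cox8b, a form of heart and skeletal muscle and brown fat, had 169, 411 and 345 normalized counts in the controls and 197 and 32.8 with DMHCA. Cox6a2, a form of heart and skeletal muscle, had 394, 916 and 449 in the controls and 561 and 103 with DMHCA. Cox7a1, with a like distribution, had 336, 379 and 352 in the controls and 533 and 211 with DMHCA. For all of these DMHCA 2 was the lowest sample by a wide margin, and the groups overlapped (log2 fold changes −1.42, −0.82 and 0.07, the last turning to −0.02 without DMHCA 1). Without DMHCA 2 these were −0.60, −0.02 and 0.62. The 15 skeletal muscle markers, led by the troponin gene Tnnt3, summed to 1114, 1981 and 1438 TPM in the controls and 1566, 455 and 1692 TPM in DMHCA 1, 2 and 3, and each had counts in some library. DMHCA 2 was therefore the lowest for muscle markers as well, and the part of muscle in these forms was not tested. The 6 brown fat markers, led by Cidea, went the other way, with 16.2, 13.04 and 10.4 TPM in the controls and 10.5, 55.6 and 10.3 TPM with DMHCA. Cox4i2, a form of lung and of vascular wall cells, was rare, at 1.07 to 2.03 TPM, and Ndufa4l2, a paralog of Ndufa4 induced by hypoxia in many cells, was at 1.78 to 4.69 TPM. Both overlapped between the groups, and their fold changes changed sign without single libraries (−0.14 without Control 1 for Cox4i2, −0.12 without Control 3 for Ndufa4l2). The 10 markers of pericytes and vascular smooth muscle, led by Rgs5, summed to 118, 83.1 and 75.6 TPM in the controls and 105, 158 and 107 TPM with DMHCA. Among the common partners, Cox6a1, Cox7a2, Cox7b and Cox8a all overlapped, with log2 fold changes of 0.10, −0.58, −0.34 and −0.13. Cox7b and Cox8a turned to 0.08 and 0.27 without Control 2, Cox8a to 0.14 on TPM, Cox6a1 to −0.08 without DMHCA 2, and Cox7a2 moved to −0.16 without Control 2. Cox7b2 and Cox8c, forms of testis, were at most 0.07 and 0.20 TPM.

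Control 2 stood apart from the other samples for most nuclear oxidative phosphorylation genes. Among the 89 of these above 200 normalized counts on average, Control 2 was the highest sample for 67, and for each gene the log2 deviation from the median of the 5 samples was taken, a description chosen after the values were seen. The median deviation of these genes in Control 2 was 0.63, while that of the 12804 other nuclear genes was 0.00. Genes on chromosomes 7, 4 and 2 departed from this, with a chromosome-wide shift of similar size only on chromosome 7. On chromosome 7, the other genes had a median deviation of −0.60 in Control 2, and the 8 oxidative phosphorylation genes there had −0.06 in place of 0.63. In the same sample the 6 genes on chromosome 4 had 0.00 and the other genes there −0.11, and the 7 genes on chromosome 2 had 0.24 and the other genes there 0.00. In DMHCA 1 and 3 combined, chromosome 7 genes had a median of 0.37 and the 8 genes 0.38. Ndufab1, Uqcrc2 and Cox6b1, the 3 nuclear subunit genes with both DMHCA samples above all controls on normalized counts, are all on chromosome 7. Most of the 13 that were above all controls on TPM are on other chromosomes, some of which were shifted too. Ndufs3, Ndufa8, Atp5c1 and Atp5g3 are on chromosome 2, where other genes had −0.32 in Control 3 and 0.21 in DMHCA 1 and 3 combined. For Ndufb9 on chromosome 15 these medians were −0.30 and 0.19. For Sdha and Uqcrfs1 on chromosome 13 both were 0.00. On chromosome 9, the other genes had a median of −0.40 in DMHCA 2, and the 6 genes there, which include Sdhd and Atp5l, had −0.55, although Cox5a and Uqcrc1 were at −0.01 and 0.00. On chromosome 4, the medians in DMHCA 1 and 3 combined and in DMHCA 2 were 0.40 and −0.12 for the other genes and 0.19 and −0.38 for the 6 oxidative phosphorylation genes. The part of chromosome-wide differences in single samples was not tested for these genes.

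**Figure D4:**
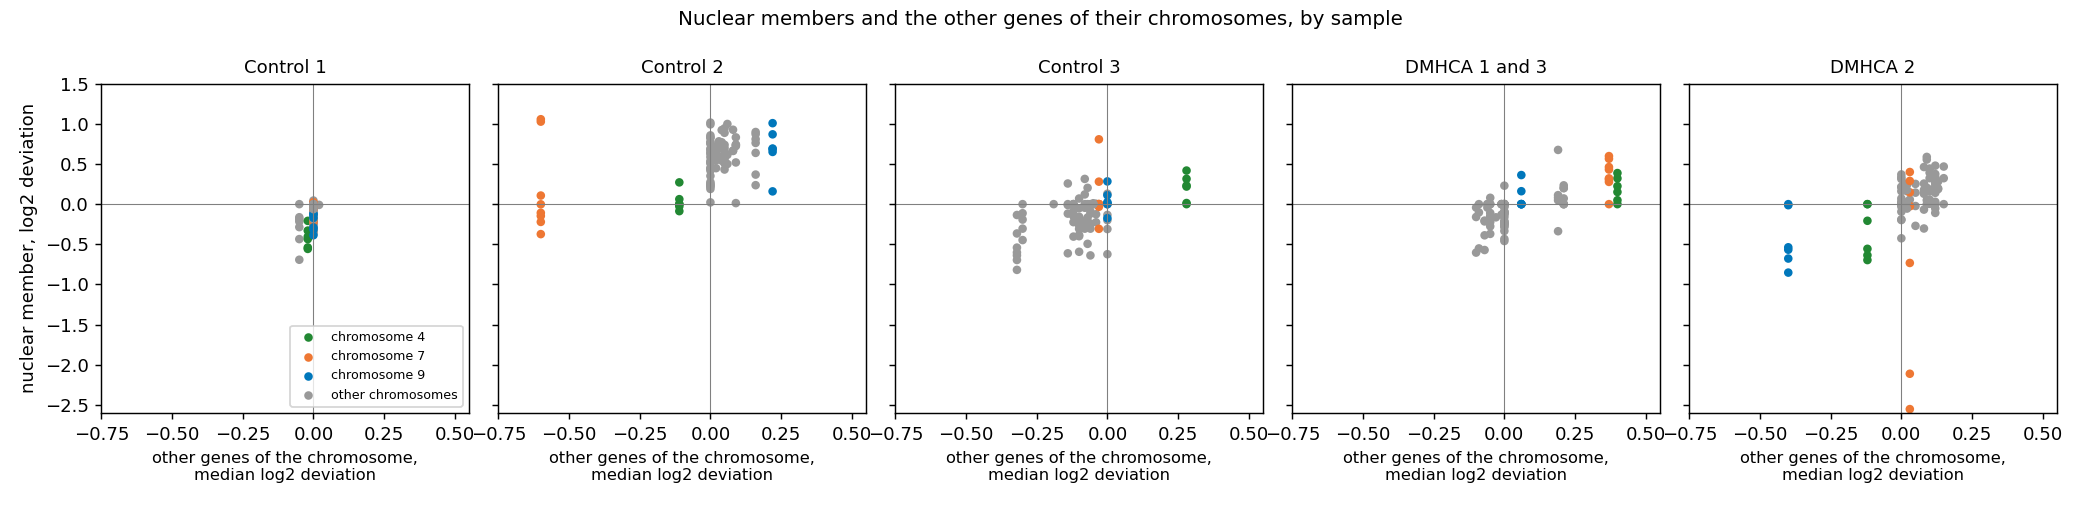
Log2 deviation of each of 89 nuclear oxidative phosphorylation genes from its median over the 5 samples (vertical), against the median deviation of the other genes on its chromosome (horizontal), in each sample. In Control 2 most genes lie near 0.63, except on chromosomes 2, 4 and 7, and in DMHCA 2 4 of the 6 genes of chromosome 9 (blue) lie low, and Cox5a and Uqcrc1 do not.

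The other lists of nuclear genes for mitochondrial functions each held genes of both directions. Of 19 genes of the citric acid cycle and pyruvate oxidation, 12 were higher and 7 lower by mean (median log2 fold change 0.12), their sum was 1511, 1632 and 1289 TPM in the controls and 1619, 2111 and 1622 TPM with DMHCA, and 1 was higher at an unadjusted p under 0.05 (3.53% of all genes). This was Idh2, the NADP-dependent isocitrate dehydrogenase of mitochondria, with 5270.4, 4268 and 4229 normalized counts in the controls and 9598 and 8625 with DMHCA. Its groups were far apart (log2 fold change 0.99, SE 0.245, unadjusted p = 0.0057, adjusted p = 0.644 in edgeR's quasi-likelihood test), and it too is on chromosome 7. Idh3a, a subunit of the NAD-dependent enzyme, overlapped (−0.61, and 0.26 without Control 2), as did Mdh2, malate dehydrogenase and the most abundant (0.16, and −0.17 without DMHCA 2). Of 17 genes of ubiquinone synthesis, cytochrome c and other dehydrogenases that feed the chain, 10 were higher and 7 lower (median 0.14), and they summed to 562, 546 and 506 TPM in the controls and 660.4, 686 and 653 TPM with DMHCA, above all controls. Among these was Coq7, an enzyme of ubiquinone synthesis on chromosome 7, with 1796, 1452 and 1186 normalized counts in the controls and 2623 and 2338 with DMHCA (0.75, SE 0.282, unadjusted p = 0.0348 in edgeR's quasi-likelihood test). Both DMHCA samples were above the controls for Coq7. Etfa and Etfb, the subunits of the flavoprotein that carries electrons from fatty acid oxidation, were at −0.37 and 0.37 and overlapped (−0.06 and 0.60 without DMHCA 2). Of 42 assembly factors outside the Ndufaf series, 21 were higher and 21 lower (median 0.00), with sums of 1836, 2147 and 1761 TPM in the controls and 1894, 2045 and 1859 TPM with DMHCA. Cox20, which acts in the maturation of the protein encoded by mt-Co2, had the smallest p among the lower, with 1810.3, 3142 and 1604 normalized counts in the controls and 1164 and 1220.1 with DMHCA. Its DMHCA samples were below all controls (−0.87, SE 0.370, unadjusted p = 0.0524 in edgeR's quasi-likelihood test, and −0.52 without Control 2). Uqcc1, an assembly factor of complex III, was at 0.54 and Cox17, a copper chaperone and the most abundant, at −0.29 (−0.06 without Control 2).

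Of 26 genes that transcribe, process or replicate mitochondrial DNA, 15 were higher and 11 lower (median 0.09), and 0 were under an unadjusted p of 0.05 in edgeR's quasi-likelihood test. Their sums were 590, 561 and 554 TPM in the controls and 556, 662 and 555 TPM with DMHCA and overlapped. Slirp, which with Lrpprc stabilizes mitochondrial mRNAs, was the most abundant and had 112, 106 and 114 TPM in the controls and 84.5, 91.7 and 76.2 TPM with DMHCA. All DMHCA libraries were below all controls (log2 fold change −0.53, SE 0.239, unadjusted p = 0.0636 in edgeR's quasi-likelihood test). Fastkd5, which processes mitochondrial RNA, was higher (0.63, SE 0.351) with both DMHCA samples above the controls. The 78 mitochondrial ribosomal protein genes were split into 38 higher and 40 lower (median −0.01; summed TPM 5186, 6001 and 4644 against 5248, 6394 and 5223), with 1 higher at an unadjusted p under 0.05 (3.53% of all genes), Mrpl17 on chromosome 7 (0.76, SE 0.252, unadjusted p = 0.0215 in edgeR's quasi-likelihood test). Mrpl24 was at −0.59 and Mrps21, the most abundant, at −0.30 (−0.03 without Control 2). Of 15 nuclear regulators of mitochondrial genes, 13 were higher and 2 lower by mean (median 0.19; summed TPM 448, 318 and 334 against 419, 516 and 422), and 2 were higher at an unadjusted p under 0.05 (3.53% of all genes) and 6 had both DMHCA samples above all controls (13.8% of all genes). Hcfc1, a cofactor of several promoter-binding factors, had 7469, 4291 and 4069 normalized counts in the controls and 8217 and 11591 with DMHCA, above all controls (0.91, SE 0.358, unadjusted p = 0.041 in edgeR's quasi-likelihood test). The other, Ppard, a fatty acid receptor named after its values were seen, was at 0.68. Myc and Nfe2l1 were at −0.18 and 0.11 and overlapped; Myc turned to 0.11 without Control 2 and to 0.03 on TPM, and Nfe2l1 to −0.01 without Control 3. Among carriers of adenine nucleotides and phosphate, uncoupling proteins and porins, 2 of 8 tested were higher and 6 lower (median −0.04; summed TPM 1938, 2216 and 1731 against 2152, 2564 and 2131). Slc25a5, an ADP/ATP carrier and the most abundant, was at 0.12 (−0.35 without DMHCA 2), and Ucp3, an uncoupling protein of muscle and fat on chromosome 7, had 35.8, 38.7 and 515 normalized counts in the controls and 25.9 and 4.86 with DMHCA, Control 3 being far above all others (−3.63, and −1.22 without Control 3).

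LXR target genes, which DMHCA is expected to induce, were examined beside targets of HIF, the factor that responds to low oxygen. The 7 LXR target genes, led by the desaturase gene Scd1, summed to 564, 311 and 685 TPM in Control 1, 2 and 3 and 2935, 2906 and 2997 TPM in DMHCA 1, 2 and 3, with 4 higher and 1 lower at an unadjusted p under 0.05 (3.53% and 4.08% of all genes). Scd1 itself had 44061, 32336 and 89309 normalized counts in the controls and 400885 and 405062 with DMHCA. The groups were far apart, with the smallest p of any gene in these lists (log2 fold change 2.87, SE 0.529, unadjusted p = 0.00122, adjusted p = 0.644 in edgeR's quasi-likelihood test). The 1 that was lower was Nr1h3, the gene of LXR alpha (−1.46). The 9 HIF target genes, led by the lactate dehydrogenase gene Ldha, summed to 1405, 1277 and 1177 TPM in the controls and 2999, 2426 and 3136 TPM with DMHCA, with 8 of 9 higher by mean but 1 of 9 higher at an unadjusted p under 0.05 (3.53% of all genes) and 2 of 9 with both DMHCA samples above all controls (13.8% of all genes). Most of this sum was Ldha, and Car9 and Slc2a1, named after their values were seen, were lower in DMHCA 2 (157 and 4752 normalized counts) than in any control. Ldha, on chromosome 7, had 63403, 60043 and 69247 normalized counts in the controls and 150491 and 108604 with DMHCA, without overlap (1.01, SE 0.339, unadjusted p = 0.0221 in edgeR's quasi-likelihood test). The relation of these genes to the mitochondrial mRNAs was not tested.

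Promoters of nuclear subunit genes were searched on both strands for motifs of factors known to act at such genes, in windows of 300 bases (250 before and 50 after the start) from RefSeq (GRCm38.p6). Of 89 subunit symbols 69 matched. The ETS motif CCGGAAG, bound by GABPA, was present in 24.6% of the 69 and in 9.93% of 27025 genes. The ERRalpha motif TCAAGGTCA was present in 2.9% and 0.466%. The NRF1 core GCGCATGC, chosen after the longer motif had been counted, was present in 14.5% and 3.05%, and the YY1 core AAGATGGCG, chosen likewise, in 10.1% and 1.64%. The longer motifs, each core with GC added at its end, were present in 7.2% and 1.07% for NRF1 and 5.8% and 0.755% for YY1. A match describes letters in the window and not a bound site. The windows below were taken from those that hold the ETS motif (CTTCCGG on the printed strand), which most of the 69 genes lacked. Its presence in each window follows from this choice and says nothing about the direction of change. By mean, Sdhd and Atp5l were lower and Cox6b1 was higher. Capitals mark the ETS motif, the ERRalpha motif (TGACCTTGA) in Sdhd and the NRF1 core (GCATGCGC) in Atp5l.
Sdhd, chr9:50603800-50604099, minus strand: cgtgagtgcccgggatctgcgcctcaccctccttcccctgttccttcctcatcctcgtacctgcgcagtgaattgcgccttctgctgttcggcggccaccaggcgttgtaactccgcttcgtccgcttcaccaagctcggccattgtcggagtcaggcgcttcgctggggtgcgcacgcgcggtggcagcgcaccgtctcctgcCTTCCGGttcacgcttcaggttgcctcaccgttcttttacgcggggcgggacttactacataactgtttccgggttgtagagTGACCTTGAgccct
Atp5l, chr9:44920693-44920992, minus strand: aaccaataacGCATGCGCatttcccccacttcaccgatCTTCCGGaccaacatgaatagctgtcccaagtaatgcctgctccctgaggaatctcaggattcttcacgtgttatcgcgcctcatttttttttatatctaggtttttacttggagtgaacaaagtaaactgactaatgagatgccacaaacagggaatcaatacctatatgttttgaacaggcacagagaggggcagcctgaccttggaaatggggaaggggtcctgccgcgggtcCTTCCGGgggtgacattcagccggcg
Cox6b1, chr7:30626065-30626364, minus strand: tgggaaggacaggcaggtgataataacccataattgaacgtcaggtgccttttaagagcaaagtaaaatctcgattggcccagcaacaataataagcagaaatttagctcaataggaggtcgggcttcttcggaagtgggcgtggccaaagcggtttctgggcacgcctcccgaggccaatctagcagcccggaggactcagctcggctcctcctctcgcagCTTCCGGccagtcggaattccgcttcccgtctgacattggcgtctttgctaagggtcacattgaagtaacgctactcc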

How the data were processed

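The authors checked reads with FastQC 0.11.9, trimmed them with cutadapt 2.9 and aligned them with Bowtie2 2.4.1 to the mouse genome (mm10, Ensembl release 99). The expected count of each gene and library was made by the authors with RSEM 1.3.1, which divides reads that fit several genes, and was deposited without scaling. The TPM values were made by the authors with the same program, from expected counts divided by effective gene length and scaled to the same total in each library, as deposited. Strand setting and RSEM options are not given in the sources used here. Expected counts, deposited to 2 decimals, had a fraction other than 0 in 19.6 to 23.5% of genes and were rounded in each library before DMHCA 1 and 3 were summed. TPM of these was averaged. Counts were filtered at a minimum of 10, scaled by TMM (factors 1.037, 0.8949, 1.075, 0.9943 and 1.008) and tested with edgeR 4.0.16 (quasi-likelihood) in R 4.3.3. P-values were adjusted over all 19427 genes. Normalized counts are counts per effective library size, times the mean of these sizes. Alternatives used DESeq2 1.42.0 and limma 3.58.1, and tables were made in Python 3.11.15. Gene positions and types came from GENCODE mouse release 21 (GRCm38), which held 99.6% of the genes. Copies were annotated pseudogenes at least 97% identical over 150 bases. The genes named are the mitochondrial mRNAs; in each complex the tested nuclear gene with the smallest p in each direction and the one with the highest TPM; tissue-restricted forms with their partners; genes with an unadjusted p under 0.05; the assembly factor of the Ndufaf series with the smallest p in each direction; in each other mitochondrial list the genes picked in the same way; and the most abundant gene of each marker list. Atp5g2, Ndufb4 and the genes on the copies were named after their values were seen. Genes, lists and this rule were chosen with earlier results of these data known.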

Additional observations from a re-analysis of the deposited data

How the results depend on the processing

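Of 59 named genes, 44 kept their direction in each of the 19 other fits that gave a value (Cox6b2, Cox4i2 and Ucp3 had none at a minimum count of 50), among them 12 of the 13 mitochondrial mRNAs, and 33 of 1118 gene values had another sign. The difference of the medians (mitochondrial minus nuclear) was −0.50 to −0.41, although fits that change only the scaling of samples could hardly move it. The log2 difference of the mitochondrial to nuclear ratio was −0.441 with copies added, −0.445 without genes that share sequence, −0.612 on shares of counts, and −0.561 to −0.49 leaving out each library. Counts depended on the samples. With 6 libraries taken as separate samples, DESeq2 called 1 gene higher and 2 lower past adjustment, of 920 genes called in all (mt-Co2 0.00133, mt-Co3 0.0025, Ndufab1 0.0451). At an unadjusted p under 0.05 it gave 2 higher and 13 lower, edgeR 2 and 10, and edgeR with a replicate block (replicate numbers of the labels) 2 and 14, where 3323, 2912 and 3207 of all 18674 genes were under 0.05. In these fits DMHCA 1 and 3, nearly the same, count as 2 samples. So counted, Idh2 (adjusted p 0.000856), mt-Rnr1 (0.0226) and Mrpl17 (0.0372), from the other lists, also passed adjustment in DESeq2. Whether replicate numbers pair samples could not be settled. Correlations of same-number pairs were −0.0468, 0.316 and 0.33 and of others −0.363 to 0.319, but DMHCA 1 and 3, nearly the same, cannot be told apart in this check. On log2(TPM + 1), limma gave 2 higher and 1 lower (1417 of all 19427 genes), and with copies summed edgeR gave 1 higher and 1 lower (1476 of 19410). Leaving out each library gave 0 to 1 higher and 0 to 3 lower (918 to 1800 of 18855 to 21550 genes); without DMHCA 2 the lone DMHCA sample is assumed to vary like the controls. With no filter on low counts the median of all genes was −0.179. Reversed log2 fold changes were, in DESeq2 with 6 libraries, edgeR with 6 libraries and the replicate block, −0.062, −0.06 and −0.033 for Cox4i2 and −0.048, −0.043 and −0.031 for Slc25a5. On TPM with limma they were 0.136 and 0.136 for Cox8a and 0.032 and 0.03 for Myc (pseudocounts 0.1 and 1). Leaving out each library, the ranges that crossed 0 were −0.61 to 0.194 for mt-Nd4l, −0.567 to 0.026 for Uqcr10, −0.015 to 0.345 for Cox4i1, −0.155 to 0.291 for Cox4i2, −0.019 to 0.625 for Cox7a1, −0.122 to 0.385 for Ndufa4l2, −0.075 to 0.338 for Cox6a1, −0.516 to 0.077 for Cox7b, −0.304 to 0.27 for Cox8a, −0.00024 to 0.389 for Ndufaf1, −0.966 to 0.261 for Idh3a, −0.169 to 0.493 for Mdh2, −0.412 to 0.112 for Myc, −0.011 to 0.231 for Nfe2l1 and −0.347 to 0.494 for Slc25a5. The cause was not tested.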

Other observations

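These results rest on 3 control and 2 distinct DMHCA samples, and no oxidative phosphorylation gene passed adjustment in edgeR's quasi-likelihood test. The ratio of the genomes was formed after the sums were seen. Reads shared with copies of mitochondrial DNA make the levels of several mitochondrial genes uncertain. Age and strand setting, and which mouse each library came from, are not given in the sources used here. Fat, B cell, basal and muscle markers differed between samples, and summed luminal and adipocyte markers separated the groups as the ratio did. RNA levels do not measure protein, respiration or the number of mitochondrial genomes.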
